A study of Mus musculus with 8 samples.

Results

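The genes described here are 9 digestive enzyme and enzyme cofactor genes of the pancreatic acinar cell, measured in fetal mouse small intestine. They are Amy2a5, Cela2a, Ctrb1, Cpa1, Cpb1, Cel, Clps, Pnliprp1 and Pnliprp2. They were taken by gene name from the array files, which gave 11 of the 55681 distinct probes, and all 9 were among the 25330 genes tested. The set was drawn up with earlier results of the same mutant and control arrays in view, so its levels and differences are given as a description and carry no test.

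RNA of the small intestine at E18.5, shortly before birth, was hybridised to 8 Agilent single-colour arrays, 4 from controls and 4 from mutants. Control replicates 1, 3 and 4 are labelled Rfx6 fl/+ and control replicate 2 Rfx6 fl/fl, where fl is an allele flanked by sites for the Cre recombinase. All 4 mutants are labelled Rfx6 fl/fl Ngn3-cre. Cre was driven by Ngn3, a gene of endocrine progenitors in the gut and the pancreas, and the labels give it to no control, which means that effects of Cre and of Rfx6 loss cannot be told apart. The labels do not say which pieces of intestine were taken, whether animals were pooled or which exons were floxed. For mutant replicates 2, 3 and 4 the description field gives another gene of the Rfx family, whereas the titles say Rfx6, and the titles were followed. Arrays are called control 1 to 4 and mutant 1 to 4 by the replicate number of the labels.

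Acinar cells form most of the exocrine pancreas. They make digestive enzymes, many of them as inactive zymogens, store them in granules and release them into ducts that open into the duodenum. Their enzyme genes are switched on together during fetal life by a small set of transcription factors, among them the PTF1 complex, which holds Ptf1a and, in mature acinar cells, Rbpjl. The intestinal epithelium receives these enzymes and is not regarded as a main source of them, although several lipase and protease genes of this family are also transcribed in other organs. In a bulk sample, fewer cells of a type and less RNA per cell cannot be told apart.

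Across arrays the spot intensity had a 75th percentile of 788.0 to 1027.4, and 60.89% to 70.75% of spots were well above background. Levels are given as log2 intensity relative to that percentile, so a level of 0 equals it and a difference of 1 is a 2-fold change. Guca2a, which encodes the intestinal epithelial peptide guanylin, stood at 6.0 to 6.45 on all 8 arrays. The Rfx6 probe lay at -3.48 to -2.93 in controls and -5.52 to -3.02 in mutants, with overlapping groups, so it does not check the labels. Mutant 1 stood apart over the whole table: it was the highest of the 4 mutants for 54.6% of all genes tested, against 12.9% to 18.7% for the others. Each member is therefore also given without it.

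The array probes for 6 targets are shown because cross-reaction between near-identical genes bears on what they measured. They are coding-strand sequences as listed in the array files, on build mm9. The first amylase probe of Amy2a5, A_55_P1996314, is cut at the stop codon. It and the probe of Amy1, the salivary and liver type amylase gene, share a run of 23 bases, set in capitals.
Amy2a5, first probe: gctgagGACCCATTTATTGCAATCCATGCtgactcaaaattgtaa
Amy1: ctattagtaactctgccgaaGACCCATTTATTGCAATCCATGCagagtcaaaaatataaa
Amy2a5, second probe: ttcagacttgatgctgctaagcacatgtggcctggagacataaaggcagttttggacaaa
Cela2a: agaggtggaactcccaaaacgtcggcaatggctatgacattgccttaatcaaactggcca
Pnliprp1: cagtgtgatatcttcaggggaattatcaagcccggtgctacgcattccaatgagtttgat
Pnliprp2: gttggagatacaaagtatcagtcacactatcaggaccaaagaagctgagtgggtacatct
The second Amy2a5 probe, A_55_P2139402, is assigned by the accessions in the array files to Amy1 as well as Amy2a5, and near-identical copies of the pancreatic amylase gene lie beside it. Signal of the amylase probes can therefore come from more than 1 gene of the cluster.

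The widest difference of the member probes came from 1 of the 2 probes of the starch-digesting enzyme. Amy2a5 encodes pancreatic alpha-amylase, and its first probe lies on chromosome 3 at 113084781 to 113084840 (mm9). That probe read -5.14, -6.64, -1.88 and -4.31 in controls 1 to 4 and 1.09, 0.16, 1.83 and 3.29 in mutants 1 to 4. Every mutant lay above every control, and control 3 stood well above the other controls. The means were -4.49 ± 1.99 and 1.59 ± 1.32 (SD, n = 4 each), a difference of 6.09. Because the probe was well above background on 3 of the 4 controls, the fold is a lower bound of at least 62.8-fold on the group means. That bound holds for this processing: with normexp background correction the difference was 4.48, and it was 4.49 with the deposited table, both smaller than the bound. The controls themselves spread widely, from -5.14 to -1.88 over the 3 that were well above background, with control 2 not above it. Leaving out 1 array at a time, mutant 1 included, gave differences of 5.37 to 6.96.

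The second Amy2a5 probe (chromosome 3, 113091400 to 113091459) read -5.56, -5.22, -4.80 and -5.15 in controls and -2.90, -3.69, -1.41 and -0.25 in mutants. The groups again did not overlap, with means of -5.18 ± 0.31 and -2.06 ± 1.54 (SD, n = 4 each). Control 4 was not well above background for this probe. The difference between the means was 3.12. It was 1.70 with normexp and 1.74 with the deposited table. Both probes placed control 3 highest among controls and the mutants in the same order, 4, 3, 1 and 2 from high to low. They differed in how far control 3 stood out, since the controls of the second probe lay within a range of 0.75.

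**Figure D1:**
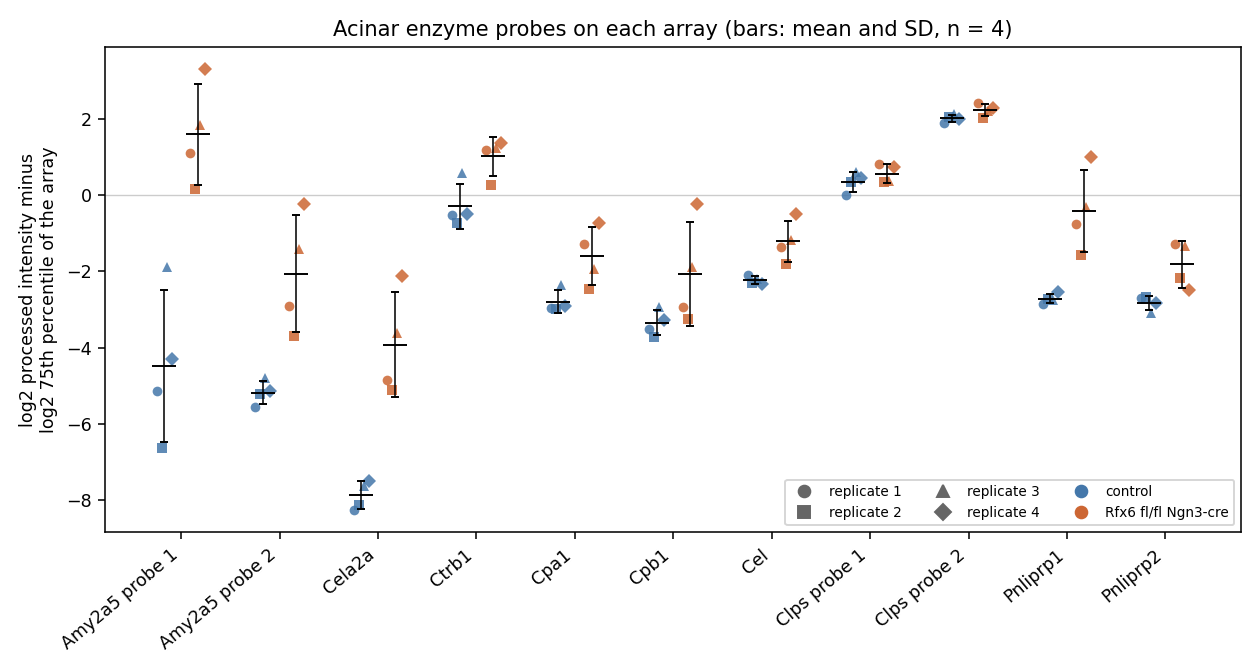
Log2 level (0 is the array's 75th percentile) of the 11 member probes, with controls in blue and mutants in orange, a marker shape per replicate, and bars for the mean and SD (n = 4). The mutant mean lies above the control mean for all 11 probes, and the groups do not overlap for 6 of them.

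Of the serine proteases, Cela2a encodes an elastase, an enzyme that cuts elastin and other proteins. Its probe (chromosome 4, 141377348 to 141377647, mm9, across a splice junction or gap, since the span is 300 bases for a 60-base probe) read -8.26, -8.12, -7.62 and -7.50 in controls and -4.86, -5.11, -3.61 and -2.12 in mutants. No control array was well above background and all 4 mutant arrays were. The means were -7.87 ± 0.37 and -3.92 ± 1.37 (SD, n = 4 each), and the difference of 3.95 corresponds to a bound of at least 3.98-fold, since the control values have no order below background. With normexp or the deposited table, the difference was smaller than that bound (1.11 and 1.08). The difference was 4.26 without mutant 1.

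Ctrb1 encodes chymotrypsinogen B, the zymogen of chymotrypsin. Its probe (chromosome 8, 114210454 to 114210513) read -0.52, -0.73, 0.58 and -0.50 in controls and 1.18, 0.25, 1.23 and 1.37 in mutants. The groups overlapped by 1 array on each side, because control 3 lay above mutant 2. The means were -0.29 ± 0.59 and 1.01 ± 0.51 (SD, n = 4 each), a difference of 1.30, and 1.24 without mutant 1. In each group 1 array set the range: the other 3 controls lay between -0.73 and -0.50, and the other 3 mutants between 1.18 and 1.37.

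The pancreatic carboxypeptidases remove amino acids from the end of a peptide, Cpa1 hydrophobic ones and Cpb1 basic ones. Cpa1 (chromosome 6, 30595240 to 30595299) read -2.96, -2.98, -2.36 and -2.91 in controls and -1.28, -2.46, -1.93 and -0.74 in mutants. Cpb1 (chromosome 3, 20149467 to 20149526) read -3.51, -3.71, -2.93 and -3.27 in controls and -2.94, -3.26, -1.90 and -0.23 in mutants. In both genes control 3 was the highest control and mutant 2 fell among the controls. For Cpb1 mutant 1 also lay just below control 3, and the groups of both genes overlapped. The Cpa1 means were -2.80 ± 0.30 and -1.60 ± 0.75 (SD, n = 4 each), a difference of 1.20, and 1.09 without mutant 1. The Cpb1 means were -3.35 ± 0.33 and -2.08 ± 1.36, a difference of 1.28, and 1.56 without mutant 1. Mutant 4 carried much of the Cpb1 difference, which was 0.66 without that array.

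Among the lipid-digesting genes, Pnliprp1 showed the widest difference. It encodes a protein related to pancreatic lipase with little lipase activity of its own. Its probe (chromosome 19, 58815028 to 58815621, across a span of 594 bases) read -2.85, -2.72, -2.74 and -2.55 in controls and -0.77, -1.57, -0.31 and 0.99 in mutants. The controls lay close together and every mutant lay above them. The means were -2.72 ± 0.12 and -0.42 ± 1.07 (SD, n = 4 each), a difference of 2.30 or 4.93-fold, and 2.42 without mutant 1. The next gene along the chromosome in the same family, Pnliprp2, encodes a lipase that also cleaves galactolipids. Its probe (chromosome 19, 58848560 to 58848619) read -2.70, -2.68, -3.10 and -2.83 in controls and -1.28, -2.17, -1.34 and -2.50 in mutants. The lowest mutant lay 0.18 above the highest control, and the mutants split into a higher pair, 1 and 3, and a lower pair, 2 and 4. The means were -2.83 ± 0.19 and -1.82 ± 0.61, a difference of 1.01 or 2.01-fold, and 0.83 without mutant 1.

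Cel encodes carboxyl ester lipase, the bile-salt-stimulated lipase that hydrolyses cholesteryl esters and other lipids. Its probe (chromosome 2, 28411609 to 28411668) read -2.11, -2.30, -2.19 and -2.34 in controls and -1.36, -1.81, -1.17 and -0.50 in mutants. All mutants lay above all controls, with means of -2.23 ± 0.11 and -1.21 ± 0.54 (SD, n = 4 each), a difference of 1.02 or 2.03-fold. It was 1.07 without mutant 1.

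Clps encodes colipase, the cofactor that anchors pancreatic lipase at the surface of fat droplets in the presence of bile salts. It showed the smallest difference of the 9 genes. Its brighter probe (chromosome 17, 28695162 to 28695221) read 1.89, 2.03, 2.12 and 2.00 in controls and 2.41, 2.02, 2.21 and 2.29 in mutants. Its other probe (28695761 to 28695820) read 0.00, 0.34, 0.61 and 0.45 in controls and 0.82, 0.34, 0.36 and 0.73 in mutants. Both probes gave a difference of 0.22 and overlapping groups, and with 1 array left out the values were 0.16 to 0.29 and 0.10 to 0.30. The means were 2.01 ± 0.09 and 2.23 ± 0.16 for the brighter probe and 0.35 ± 0.26 and 0.56 ± 0.25 for the other (SD, n = 4 each).

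By count, the mutant mean was the higher for 9 of 9 members, as it was for 57.2% of all genes tested. All 4 mutants lay above all 4 controls for 5 of 9 (Amy2a5, Cela2a, Cel, Pnliprp1 and Pnliprp2) and for 3.04% of all genes. The difference was at least 1 on the log2 scale for 8 of 9, the exception being Clps, and for 0.284% of all genes. For 0 of 9 all mutants lay below all controls (1.63% of all genes), and for 0 of 9 the mutant mean was lower by 1 or more (0.422%). The median difference was 1.28 over the members and 0.031 over all genes. The members were chosen from this contrast, so nothing is read from these counts. The slide had rows of 2 controls with 2 mutants. The median member difference was 1.1 in the row with replicates 1 and 2 and 1.42 in the row with replicates 3 and 4. Without control 3, or without mutant 2, 8 members had groups that did not overlap. Control 3 was the highest control for 5 members and mutant 2 the lowest mutant for 8, and groups part more easily with fewer arrays. The share over all genes was not computed for these splits, so nothing is read from that count either.

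The mutants also differed among themselves. The range over the 4 mutants was at least 1 for 8 of 9 members, against 15.5% of all genes, and its median was 1.72, against 0.49 over all genes. The range over the 4 controls was at least 1 for 2 of 9, Amy2a5 and Ctrb1, against 6.64% of all genes, and its median was 0.62, against 0.30. Clps was the member with a mutant range under 1.

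The mutants followed a shared order. Mutant 4 was the highest mutant for 7 of 9 members and for 18.7% of all genes, and mutant 2 was the lowest for 8 of 9 and for 18.2% of all genes. In 6 members (Amy2a5, Cela2a, Ctrb1, Cpb1, Cel and Pnliprp1) the order from high to low was 4, 3, 1 and 2, an order held by 1.22% of all genes. Mutant 1 lay above mutant 2 for 9 of 9 members and for 64.5% of all genes, a share that includes the general height of mutant 1. The step from mutant 2 up to mutant 4 was 3.13 for Amy2a5, 3.03 for Cpb1, 2.99 for Cela2a and 2.57 for Pnliprp1. It was 1.72 for Cpa1, 1.31 for Cel, 1.12 for Ctrb1 and 0.27 for Clps. Pnliprp2 ran the other way, with -0.33. Its highest mutants were 1 and 3, and mutant 4 was its lowest.

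**Figure D2:**
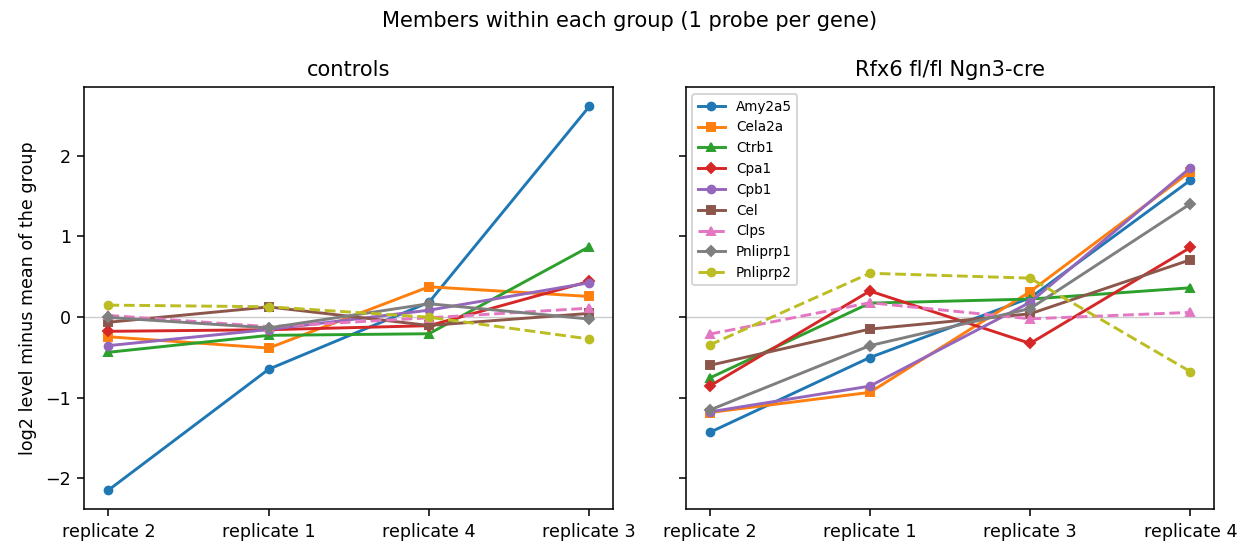
Log2 level of each of the 9 members (1 probe a gene) minus its mean over the group, for the 4 controls (left) and the 4 mutants (right), with arrays sorted for display and lines joining the values of 1 gene. Mutant replicate 2 is the lowest mutant for 8 members and replicate 4 the highest for 7, while Pnliprp2 and Clps (dashed) run otherwise; the control values of Cela2a, and control 2 of Amy2a5, are not well above background.

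Among controls only some members shared an order. Control 3 was the highest control for 5 of 9 members (Amy2a5, Ctrb1, Cpa1, Cpb1 and Clps), against 28.6% of all genes. Control 3 exceeded control 2 by 1.31 for Ctrb1, 0.78 for Cpb1 and 0.62 for Cpa1. For Amy2a5 control 2 was not well above background, and control 3 was at -1.88 against -4.31 and -5.14 in controls 4 and 1. Among the lipid-digesting members the step from control 2 to control 3 was 0.11 for Cel, 0.09 for Clps, -0.02 for Pnliprp1 and -0.42 for Pnliprp2. Cela2a has no order among controls, none of which was well above background. For a count over all members, each of the 36 pairs of members was compared on each of the 6 pairs of arrays in a group, and a pair of arrays was ordered alike when both members put the same array higher. Of these, 77.8% were ordered alike among mutants and 54.6% among controls, a share that counts control values of Cela2a and Amy2a5 below background. Over the 7 members well above background on all 8 arrays the shares were 73.0% and 49.2%. No share over all genes was computed for this count, and members with unrelated orders would also agree on some pairs. Amy2a5, Ctrb1, Cpa1 and Cpb1 had the same full order of controls, 3, 4, 1 and 2 from high to low. Some of its steps were small, as for Cpa1 at -2.91, -2.96 and -2.98 in controls 4, 1 and 2. The share of all genes with that order was not computed. Over all 9 members about as many control comparisons were ordered differently as alike, so the control shares are not read as an order shared by the whole set. All 6 pairs of arrays were ordered alike for 15 of 36 pairs of members in mutants and 6 of 36 in controls. These pairs share their arrays and are not independent, and the difference between the groups was not tested. The mutant share was 85.2% without mutant 1 and 63.0% without mutant 2. Pnliprp2 was ordered like the median of the other members in 2 of 6 pairs of mutants and 0 of 6 pairs of controls.

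Other genes whose pattern was most like that of the members were ranked by Pearson's r, over 8 arrays, with the median member profile, among the 1372 genes tested with a range of at least 2. The profile contains the group difference, so r is used as a measure of likeness without a p. An r of at least 0.9 was reached by 9 genes. Among them were Cela3a (0.990), Amy1 (0.983), the amylase transcript TC1733495 (0.976), Cela3b (0.955), Try4 (0.949), Gm10334 (0.947), Gm5771 (0.947) and Try5 (0.937). Of those named, Gm10334, Gm5771 and Cela3a are listed in the array files as predicted genes. Cela3a is listed there as Gm13011 and takes its elastase name from RefSeq. The others are elastase, amylase or trypsinogen genes or transcripts by name or array description. The Gm10334 and Gm5771 probes lie on chromosome 6 (mm9) between those of the trypsinogens Try5 and Prss1. Whether they share signal with trypsinogen copies was not tested. The tenth was a metallothionein 1 transcript, ENSMUST00000062980, at 0.878. With each group centred on its own mean, so that the group difference no longer counts, r was 0.959 for Cela3a, 0.929 for Amy1, 0.898 for TC1733495, 0.876 for Gm10334, 0.866 for Cela3b, 0.864 for Gm5771, 0.764 for Try4 and 0.699 for Try5. For the metallothionein transcript it was 0.758.

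**Figure D3:**
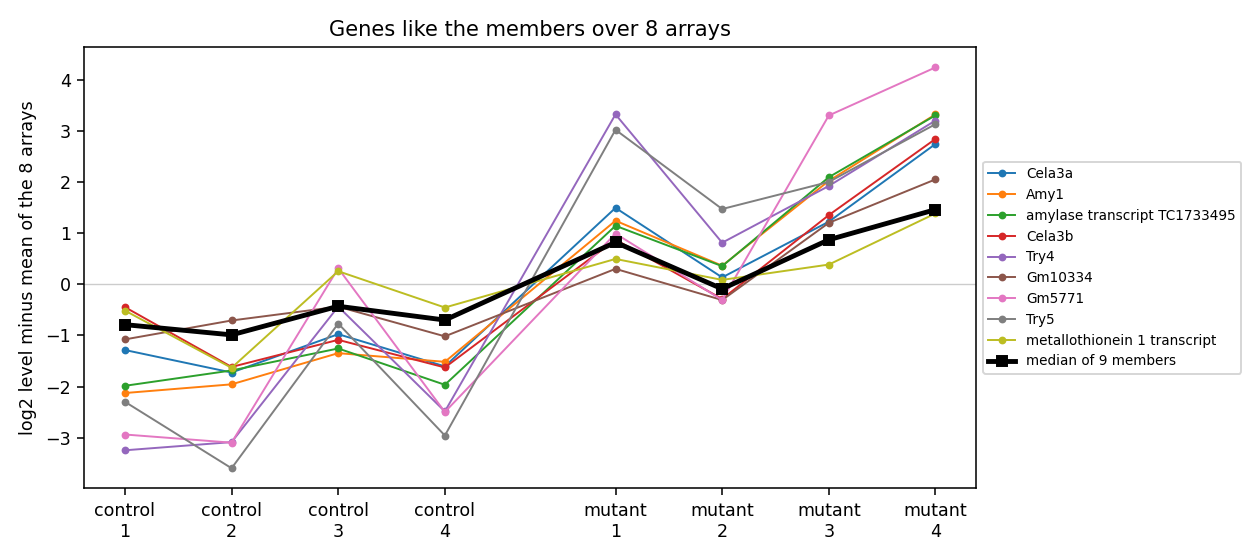
Log2 level minus the mean of the 8 arrays for 9 of the 10 non-member genes most like the members (thin lines) and for the median of the 9 members (black), on each array; the lines join values of 1 gene and replicates have no order. Each of the 9 genes is higher on average in mutants and dips at mutant 2, as the member median does (0.82, -0.09, 0.87 and 1.46 in mutants 1 to 4).

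A list of 28 further secretory genes of acinar cells was measured beside the members. Like the members, the list was drawn up with earlier results of these arrays known, so its counts are not independent of them. Of these, 24 were measured and 18 were bright enough to be tested; Try10, Amy2a1, Amy2a2 and Amy2b were not analysed here. In limma, 0 of 18 passed an adjusted p of 0.05 over all genes, where 0.00395% of all genes passed as higher and 0.0553% as lower. At an unadjusted p under 0.05 there were 7 higher and 0 lower, against 3.19% and 2.16% of all genes. For 6 of 18 all mutants lay above all controls, against 3.04% of all genes, and 7 of 18 were higher by at least 1, against 0.284%. These 7 include Tff2, whose difference was 0.71 without mutant 3. The median difference of the list was 0.28.

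The trypsinogens, zymogens of the protease that activates the other zymogens, gave the smallest adjusted p. Try5 (chromosome 6, 41261247 to 41261306, mm9) read -6.62, -7.92, -5.09 and -7.28 in controls and -1.30, -2.85, -2.32 and -1.19 in mutants, a difference of 4.81 (SE 0.61, limma adjusted p = 0.0511). Its probe was well above background on 1 control array, control 3, which makes it at least 13.5-fold higher on group means. Try4 (chromosome 6, 41255472 to 41255531) read -8.15, -7.99, -5.34 and -7.39 in controls and -1.58, -4.09, -2.98 and -1.70 in mutants, which puts the mutants higher by 4.63 (SE 0.74, limma adjusted p = 0.135). The bound on group means is at least 8.83-fold. Both bounds hold for this processing: the Try5 difference was 2.01 with normexp and 2.06 with the deposited table, and that of Try4 1.72 and 1.77, all smaller than the bounds. In both genes all mutants lay above all controls, control 3 was the highest control and mutant 2 the lowest mutant. Without control 3 both passed, with limma adjusted p of 0.0114 for Try5 and 0.0460 for Try4. For both genes control 3 was the only control well above background. The controls left in that fit were therefore all undetected, and nothing is read from these passes. Over the alternatives the adjusted p was 0.0114 to 0.247 for Try5, which passed in 3 of 17, and 0.046 to 0.458 for Try4, which passed in 1 of 17. Trypsinogen copies are near-identical, and the probes cannot be taken to separate them.

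Amy1 (chromosome 3, 113258901 to 113258960) read -3.78, -3.61, -3.00 and -3.17 in controls and -0.41, -1.29, 0.37 and 1.67 in mutants. Its groups did not overlap, and the mutants again ran 4, 3, 1 and 2 from high to low. The means were -3.39 ± 0.37 and 0.08 ± 1.25 (SD, n = 4 each), and the mutants were higher by 3.47 (SE 0.55, limma adjusted p = 0.135). With the slide row as a block its limma adjusted p was 0.0304, the only alternative of 18 in which it passed (range 0.0304 to 0.435). The elastase genes Cela3a and Cela3b differed by 2.80 (SE 0.48, limma adjusted p = 0.174) and 2.39 (SE 0.59, limma adjusted p = 0.539). For both genes all mutants lay above all controls. They passed in no alternative, with adjusted p of 0.0616 to 0.543 for Cela3a and 0.258 to 0.917 for Cela3b. Control 4 was not well above background for Cela3b. With normexp and the deposited table the difference was 1.25 and 1.21 for Cela3b, and 1.92 with each for Cela3a.

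Overlapping groups were found for 12 of the 18 tested genes of the list. Cela1, an elastase, differed by 0.76, and Sycn, a zymogen granule protein, by 0.35. Ctrl (-0.03) and Ctrc (0.07), both of the chymotrypsin family, were near 0, as were Pla2g1b, a secreted phospholipase (-0.09), Rnase1, a ribonuclease (-0.08), and Spink1, a trypsin inhibitor (0.14). Klk1 (0.12), Gnmt (0.14), Gatm (0.21) and Zg16 (-0.20) were also small. Tff2, a trefoil peptide, differed by 2.32, with mutant 3 at 2.89 against -4.47 to -2.94 in the other mutants. The limma adjusted p of these 12 genes was 0.821 to 0.941.

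The remaining 6 genes were too dim to be tested. Prss1 was well above background on 0 controls and 2 mutants and Prss2 on 0 controls and 3 mutants, and the Prss2 groups overlapped. No fold is given for these trypsinogens, because mutant values not well above background enter their mutant means. Mutant 4 was the highest array for both, at -2.15 and -2.29. Pnlip, the main pancreatic lipase of adult animals, was well above background on 1 control (control 4, at -3.63) and 1 mutant (mutant 1, at -5.34). Gp2, a granule membrane protein, and Serpini2 were above background on 1 mutant each, mutant 1 for Gp2 and mutant 4 for Serpini2, and Prss3 on no array.

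**Figure D4:**
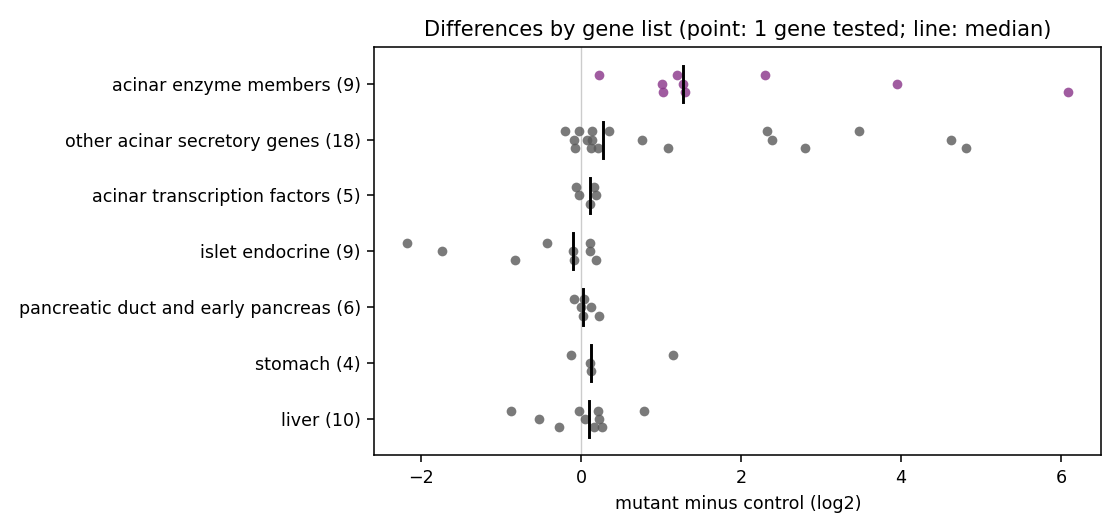
Mutant minus control difference on the log2 scale for the 9 members and for the genes tested in 6 marker lists, with 1 point a gene and a line at the median of each list. The members spread from 0.22 to 6.09, the other acinar secretory genes from -0.20 to 4.81 with a median of 0.28, and the medians of the 5 other lists lie between -0.10 and 0.12.

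Transcription factors of acinar cells gave no call. Of 6 genes, 5 were tested, 0 passed in limma and 0 had an unadjusted p under 0.05. Ptf1a, the DNA-binding factor that defines the acinar lineage, was well above background on no array. Rbpjl, its acinar-specific partner, stood at -3.97 ± 0.15 in controls and -3.86 ± 0.13 in mutants (SD, n = 4 each), and differed by 0.11 (SE 0.11, limma adjusted p = 0.822). Bhlha15, a factor of secretory granule maturation also known as Mist1, differed by 0.19, Gata4 by 0.16, Nr5a2 by -0.03 and Gata6 by -0.06. Nr5a2, Gata4 and Gata6 are also factors of the intestinal epithelium. The limma adjusted p of these 5 genes was 0.821 to 0.952.

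Stretches of promoter are shown for the 5 members in which both parts of the letters known for the PTF1 complex were found. The 250 bases before the start of each gene were taken from RefSeq (GRCm38.p6, another build than the array coordinates) for the 8 members in its table, all but Clps, and searched on both strands for the E-box, whose letters are CANNTG. The second motif was TGGGAA, likewise on both strands, and no match of one motif overlapped the other in the stretches shown. The E-box occurred in 8 of 8 members and in 66.2% of all 32851 windows of that length. The second motif occurred in 5 of 8 and in 21.6% of all windows, and both in 5 of 8 and 14.8%. Capitals mark the matches, the one in Ctrb1 for the second motif being on the other strand.
Cela2a: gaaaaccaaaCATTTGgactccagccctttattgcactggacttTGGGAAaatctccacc
Ctrb1: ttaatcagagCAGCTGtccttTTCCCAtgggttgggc
Cpa1: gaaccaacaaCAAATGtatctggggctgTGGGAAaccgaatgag
Cel: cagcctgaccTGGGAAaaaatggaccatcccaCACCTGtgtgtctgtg
Pnliprp1: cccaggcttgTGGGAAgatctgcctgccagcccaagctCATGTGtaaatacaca
These stretches lie at chr4:141826075-141826134 (minus strand), chr8:111691189-111691225 (minus), chr6:30639170-30639213 (plus), chr2:28563453-28563500 (minus) and chr19:58728786-58728839 (plus). The E-box shown begins 119, 205, 38, 65 and 63 bases before the start in Cela2a, Ctrb1, Cpa1, Cel and Pnliprp1, and the second motif begins 85, 194, 20, 87 and 91 bases before it. Amy2a5, Cpb1 and Pnliprp2 held the E-box and not the second motif in the window. The matches are letters in a window and say nothing of binding.

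Markers of islet cells, which lie beside acinar cells in the pancreas, gave no call as higher in mutants. Of 12 islet genes, 9 were tested, and as higher 0 passed in limma and 0 had an unadjusted p under 0.05. As lower, 1 of 9 passed in limma, against 0.0553% of all genes, and 4 of 9 had an unadjusted p under 0.05, against 2.16%. For 3 of 9 all mutants lay below all controls, against 1.63% of all genes. Iapp, which encodes islet amyloid polypeptide, read -1.01, -1.81, -1.47 and -1.55 in controls and -3.31, -3.65, -2.64 and -3.17 in mutants. It lay below all controls in every mutant (difference -1.74, SE 0.23, limma adjusted p = 0.0618). The insulin genes had overlapping groups: Ins1 differed by -0.43 (limma unadjusted p = 0.0199, adjusted p = 0.821) and Ins2 by -0.10. Slc2a2 (0.11), Nkx6-1 (0.19) and Mafa (0.11) had overlapping groups too, and Ppy, G6pc2 and Slc30a8 were not tested. Of the 7 duct and early pancreas genes beside Cpa1, 6 were tested and 0 passed, with 0 at an unadjusted p under 0.05.

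Markers of organs beside the small intestine are given as summed linear levels over each list, in units of the 75th percentile. The 10 liver genes summed to 179 to 245 in controls and 168 to 210 in mutants, and 0 of 10 passed. The bright genes Afp and Serpina1a set most of that sum, which hides a wide spread of dimmer liver genes. Alb ran from -5.35 to -2.63 in controls and -7.18 to -2.59 in mutants. Ahsg ran from -5.78 to -1.69 in controls and -6.30 to -1.31 in mutants. For both genes the groups overlapped, and mutant 3, the lowest mutant, was not well above background, nor was control 2 for Ahsg. Fga was above (0.79, limma adjusted p = 0.580) and Afp below (-0.52, limma adjusted p = 0.709) all controls in every mutant. The 10 stomach genes summed to 0.459 to 0.517 in controls and 0.418 to 6.21 in mutants, the top value being mutant 3, and 0 of 4 tested passed. On mutant 3 Gkn3 stood at 2.33 (others -2.43 to -1.88 among mutants), Tff1 at -0.17 (others -7.73 to -7.00) and Muc6 at -2.97 (others at most -7.92). That array was never the highest mutant for a member, but it lay above the member's own mean over the 8 arrays for 9 of 9. The salivary and lacrimal list summed to 0.314 to 0.394 in controls and 0.643 to 3.37 in mutants and includes Amy1; of its other measured genes Bpifa2, Prol1 and Smr3a were well above background on no array, while Dcpp1 (-0.41), Aqp5 (0.07) and Pip (-0.03) were on all 8, with overlapping groups and those differences. Of the fat, lymphoid and spleen, proximal intestine and distal intestine lists, 0 genes passed. Fabp6, a bile acid binding protein of the ileum, was above all controls in every mutant (2.33, SE 0.46, limma adjusted p = 0.294). At an unadjusted p under 0.05 in limma there were 1 higher and 1 lower liver gene, 1 salivary gene (Amy1), 1 gene of the distal intestine (Fabp6) and 0 genes of the other 4 organ lists. Whether RNA of a neighbouring organ has a part in the member levels was not tested, and the share of pancreas in each piece of tissue is not known from the labels.

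**Figure D5:**
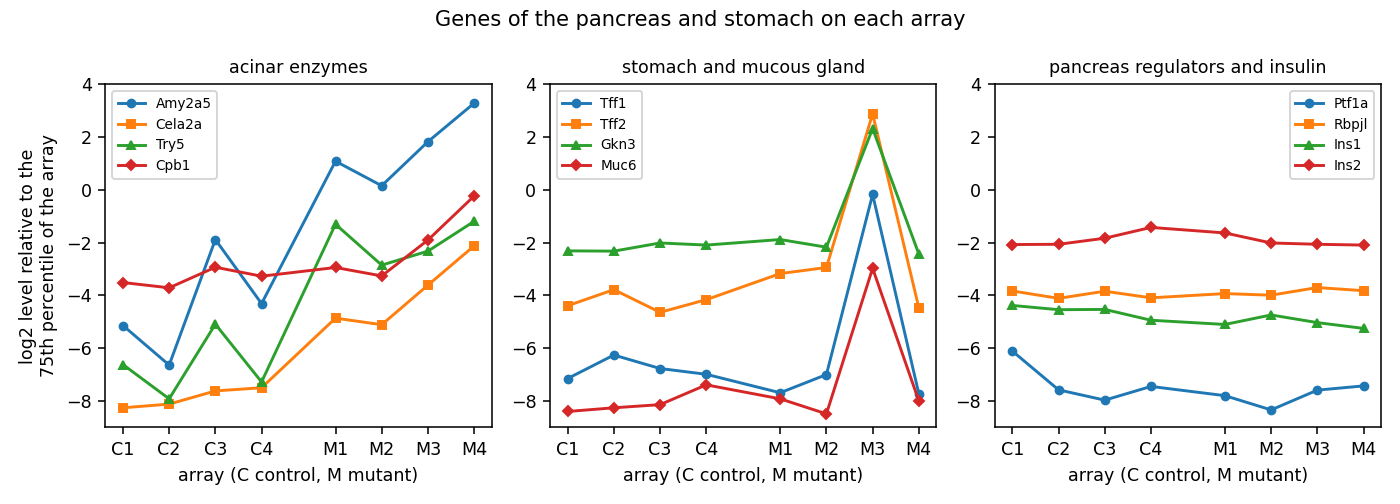
Log2 level (0 is the array's 75th percentile) on controls 1 to 4 (C1 to C4) and mutants 1 to 4 (M1 to M4) for 4 acinar enzyme genes, 4 genes of stomach and mucous glands, and 4 genes of pancreas regulators and insulin; lines join values of 1 gene. The stomach genes peak on M3, where Tff2 is at 2.89, while Amy2a5, Cela2a, Try5 and Cpb1 are highest on M4.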

How the data were processed

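Per the labels' protocols, the labelling with cyanine 3 started from 100 ng of RNA. The slide, of array design 028005 on mm9 per the file headers, was read by the authors in Feature Extraction (10.10.1.1 in the submitters' processing notes). The authors deposited linear spot intensity values without normalisation between arrays, and a second table of linear intensity values of unstated processing. Across spots that table had a Spearman correlation of 0.99997 to 0.99998 with the median intensity of the same array, and it was used as an alternative. Exon and UTR positions were not analysed here.

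Levels are log2 processed intensity, scaled by subtracting the array's own 75th percentile on that scale (59305 non-control spots); 117 to 157 outlier spots an array were left out, and 0 were saturated. All 8 arrays lay on 1 slide read in 1 scan. Spots of a probe were averaged. A probe counted as well above background with 50% or more of its spots so marked, and the test needed 4 or more such arrays of 8 (35472 of 55681 probes). The brightest tested probe stood for a gene, giving 25330 genes. RefSeq (GRCm38.p6) accessions named 26582 probes and older symbols 492; 28607 kept the file's name.

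The comparison used limma 3.58.1 under R 4.3.3 (two-sided, no covariates, Benjamini-Hochberg over all genes, threshold 0.05), tested on simulated data first. The p-values measure the spread between these 8 samples. Where a probe of the dimmer group was not well above background, its fold is a bound on group means: per array the probe's value was used, or the lowest value well above background if that was higher.

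Members and lists were chosen with earlier results of these data known. Genes named are all member probes, all measured genes of the acinar secretory, acinar transcription factor and islet lists, genes of other lists called or with groups that did not overlap, and the 10 non-members most like the member profile. Some genes that this rule names are not reported here. Rfx6, Guca2a, Alb, Ahsg, Serpina1a and the stomach genes of mutant 3 were named after their values were seen. Same-numbered control and mutant arrays were not paired by the labels. Alternatives changed the background correction, normalisation, scaling, filter, probe choice, blocks, array weights and the arrays left out.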

Additional observations from a re-analysis of the deposited data

Results flagged for a closer look

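Examined were the member probes, the acinar secretory, acinar transcription factor and islet lists, and Fabp6, Fga, Afp, Gkn3 and Tff1. Of 102 groups of 4 arrays, 9 held an extreme array. Its gap to its nearest neighbour, as a share of the whole range, passed Dixon's critical value. About 5.1 such groups are due by chance at 1 in 20.

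For the members, Ctrb1 stood at 0.25 in mutant 2, against 1.18 to 1.37 in the other mutants, and Cpa1 stood at -2.36 in control 3, against -2.98 to -2.91 in the other controls. Among other acinar genes, Pnlip stood at -3.63 in control 4, against -8.10 to -7.36. Ctrc was -4.34 in mutant 1, against -4.68 to -4.64, and Spink1 was 7.49 in control 2, against 7.71 to 7.75. Of the transcription factors, Bhlha15 was -2.84 in control 1, against -2.77 to -2.76, and Gata4 was 2.07 in control 3, against 1.70 to 1.76. The stomach genes Gkn3 and Tff1 stood apart in mutant 3, at 2.33 against -2.43 to -1.88 and at -0.17 against -7.73 to -7.00 in the other mutants.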

How the results depend on the processing

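The median member difference of 1.28 stayed positive in all 18 alternatives, between 0.94 (the deposited table) and 1.55 (without mutant 2). It was 1.28 with the slide row block, the replicate block and no filter. The blocks cannot change a difference of group means in this balanced design, and all members had passed the filter, so these 3 alternatives are no check on it. The members were also chosen from this contrast. Of 132 single-probe differences under alternatives, 128 moved by less than the replicate SD, 4 by more (the second Amy2a5 probe, lowest 1.70, and Cela2a, lowest 1.08) and 0 changed sign. Members with groups that did not overlap numbered 3 to 8, the 3 being of 7 members left when all 8 arrays had to be well above background. The 8 came without control 3 or without mutant 2, where the share over all genes was not computed. The share of pairs ordered alike was 63.0% to 85.2% among mutants and 49.2% to 61.1% among controls.

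Over all genes, limma called 15, and 27 with normexp, 41 with array weights, 7 with the replicate block and 10 to 22 with 1 array left out. Of the other acinar genes it called 0, and 1 with normexp (Try5), 1 with the slide row block (Amy1), 1 with array weights (Try5) and 0 to 2 with 1 array left out. Of the neighbouring lists it called 1, and 2 with normexp, 2 with array weights and 1 to 2 with 1 array left out, where the added gene was Iapp each time (without mutant 3 for the arrays left out). The causes of these changes were not tested. Transcription factors gave 0 in all 18. Same-numbered arrays correlated at -0.093 to 0.091 in their deviations from the group means and 1 of 4 controls correlated best with its own number, so the samples share only a number. Signal over background limits Cela2a, whose controls have only a bound, and 4 arrays a group limit the precision.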

Other observations

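Metallothioneins, small zinc-binding and copper-binding proteins, ranked close behind the enzymes in likeness to the members. Mt2 stood at 2.42, 0.49, 4.76 and 3.28 in controls 1 to 4 and 5.19, 3.47, 4.48 and 7.06 in mutants 1 to 4, with overlapping groups (difference 2.31, limma adjusted p = 0.821). Mt1 stood at 6.11, 5.56, 7.18 and 6.64 in controls and 7.49, 6.65, 6.80 and 8.21 in mutants (difference 0.92, limma adjusted p = 0.821). Both were highest in mutant 4 and, among controls, in control 3 and lowest in control 2. Within groups their r with the member profile was 0.821 and 0.796 over 8 arrays, with no p.

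The ileal genes Fgf15 and Fabp6 took another order. Fgf15, a hormone induced by bile acids, stood at -0.83, -0.03, -3.61 and -0.61 in controls and 2.87, 1.67, 1.42 and 1.21 in mutants (difference 3.06, limma adjusted p = 0.513). Fabp6 stood at 2.30, 4.10, 3.43 and 4.50 in controls and 6.48, 6.10, 5.81 and 5.25 in mutants. For both genes all mutants lay above all controls and mutant 4 was the lowest mutant. Within groups their r with the member profile was -0.365 and -0.303. The rest of the distal intestine list did not share this. Slc10a2 differed by -0.32, with mutant 4 its highest mutant at -3.18, Osr2 by 0.02 and Guca2a by 0.04, all with overlapping groups. All genes of this paragraph were named after their values were seen.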
